A study of Mus musculus with 6 samples.

Results

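The Myc network is the set of transcription factors that meet at the dimerisation partner Max. It was followed in lung metastases of mice carrying MMTV-Myc, a transgene in which a mouse mammary tumour virus promoter, active mainly in mammary epithelium, drives the Myc oncogene. The 10 genes were the Myc family (Myc, Mycn and Mycl), Max itself, the Max-binding repressors Mxd1, Mxd3, Mxd4, Mxi1 and Mnt, and the Max-like protein Mlx. They were chosen by gene symbol, taking every probe set annotated with 1 of these symbols alone, which gave 22 of the 20380 probe sets with 1 symbol and 10 of 12393 genes. The tested metastases were 3 E2F2 knockouts (KO), labelled Myc E2F2 KO. They were set against 3 metastases labelled Myc E2F3 Het (Het), from an E2F3 heterozygous background. All carried the Myc transgene, were of strain FVB and were flash frozen at endpoint. A number in the titles is the same for the 3 Het arrays and differs between the KO arrays, so the Het metastases probably came from 1 mouse. No metastasis wild type for E2F2 and E2F3 was analysed here, and the labels give no ages.

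Myc binds DNA only as a dimer with Max, usually at the E-box CACGTG, and activates genes of growth, ribosome production and metabolism. Mxd proteins, Mxi1 and Mnt compete for Max and, at the same sites, recruit Sin3 and histone deacetylases to repress transcription. Mlx pairs with some of these repressors (Mxd1, Mxd4 and Mnt) and with the glucose-sensing factors Mlxip and Mlxipl. In normal tissue Myc is typical of dividing cells, while Mxd1, Mxd4 and Mxi1 are typical of cells leaving the cycle, and in these tumours the transgene places Myc under a viral promoter.

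The starts of 3 member genes are shown because 1 probe set of each, bright enough to be tested, separated the groups in the measurements that follow. A Mycl probe set also did so but was too dim to be tested, and the Mycl window, not shown, held 0 E-boxes. Each sequence holds the 250 bases before the RefSeq start of the gene, read 5′ to 3′ on the strand of the gene, with the E-box in capitals.
Max (GRCm38.p6 chr12:76962249-76962498, minus strand): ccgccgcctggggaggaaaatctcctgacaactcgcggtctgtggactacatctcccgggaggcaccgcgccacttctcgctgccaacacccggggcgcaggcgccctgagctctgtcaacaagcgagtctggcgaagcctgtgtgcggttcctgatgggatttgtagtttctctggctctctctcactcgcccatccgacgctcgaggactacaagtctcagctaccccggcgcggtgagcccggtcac
Mxd4 (GRCm38.p6 chr5:34187711-34187960, minus strand): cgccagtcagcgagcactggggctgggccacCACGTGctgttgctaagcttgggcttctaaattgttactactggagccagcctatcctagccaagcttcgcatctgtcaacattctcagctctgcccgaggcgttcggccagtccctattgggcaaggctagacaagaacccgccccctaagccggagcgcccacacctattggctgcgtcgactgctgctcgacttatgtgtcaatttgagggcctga
Mlx (GRCm38.p6 chr11:101087040-101087289, plus strand): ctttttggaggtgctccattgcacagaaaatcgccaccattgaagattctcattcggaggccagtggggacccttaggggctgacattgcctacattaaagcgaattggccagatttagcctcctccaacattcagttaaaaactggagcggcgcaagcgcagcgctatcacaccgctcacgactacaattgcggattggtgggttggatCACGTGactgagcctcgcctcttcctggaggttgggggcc
The E-box CACGTG, which is its own reverse complement, was found 1 time in the Mxd4 window, beginning 219 bases before the start, and 1 time in the Mlx window, beginning 40 bases before it. The Max window held 0. RefSeq windows were matched for 9 of the 10 members, all but Myc, with 11 windows in all. Only Mxi1 had more than 1 window, and none of its windows held an E-box, so the windows are not separate genes. An E-box stood in 3 of these 11, the third being that of Mnt, against 6.02% of 32851 windows of the same length. The E2F-type motif TTTNNCGC, searched on both strands, stood in 1 of the 11, that of Mycn, against 4.28% of all windows. These matches are descriptions of the letters and not binding sites.

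The values were MAS5 signals, brightnesses on a linear scale, and all 6 arrays had been scaled to a trimmed mean of 500.2 (2% left out at each end), with medians between 136.9 and 164.0. For E2f2, 0 probe sets were annotated, so the KO label was not checked. E2f3 signals overlapped, with 91.4 to 137.9 in KO and 73.0 to 144.2 in Het metastases, and where this probe set lies relative to the disrupted allele was not known. On a list of 15 epithelial and milk genes, the label of a mammary tumour was met by the milk gene Csn2. Csn2 read 12671 to 17785 in KO and 16480 to 18776 in Het metastases. The epithelial keratin gene Krt8 read 9660 to 12113 in KO and 10637 to 11285 in Het metastases. Other genes of the 15 on this list varied more, with Wap at 944.6, 3644 and 9295 in KO replicates 1, 2 and 3, against 7217 to 9654 in Het metastases. Gata3 was lower in KO without overlap (343.8 to 417.5, against 678.9 to 1045 in Het metastases), Foxa1 was higher without overlap, and Esr1 and Pgr were below the filter. Without overlap, 10.5% of all genes were lower and 5.88% higher in KO. Surrounding lung was present as well, as Sftpc, the surfactant protein C gene of alveolar type 2 cells, read 5981 to 18596 in KO and 11171 to 14825 in Het metastases. KO replicate 1 stood apart by the mean of its lung alveolar markers. Its airway markers, over 4 genes, stood 0.49 log2 units above the mean of the 6 arrays, near the 0.40 of Het replicate 1. Het replicate 1 stood apart by its 3' to 5' signal ratio for the transferrin receptor, a measure of RNA and labelling quality. This ratio was 11.8 against 3.25 to 5.15 on the other arrays. None of the 9 lymphocyte markers on the array passed the filter on dim signals.

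Myc, the oncogene driving the tumours, was bright on every array, and its difference between the groups was within the spread between metastases. Its single probe set read 10662, 10870 and 13138 in KO replicates 1, 2 and 3, against 11302, 13277 and 13558 in Het replicates 1, 2 and 3. The groups overlapped, and the whole spread from the lowest to the highest metastasis was 1.27-fold. On the log2(signal + 16) scale the KO minus Het difference was -0.14 (SE 0.17; 95% interval -0.56 to 0.28; limma adjusted p = 0.9999). The labels do not say whether this probe set reads the transgene, the mouse's own Myc or both.

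**Figure D1:**
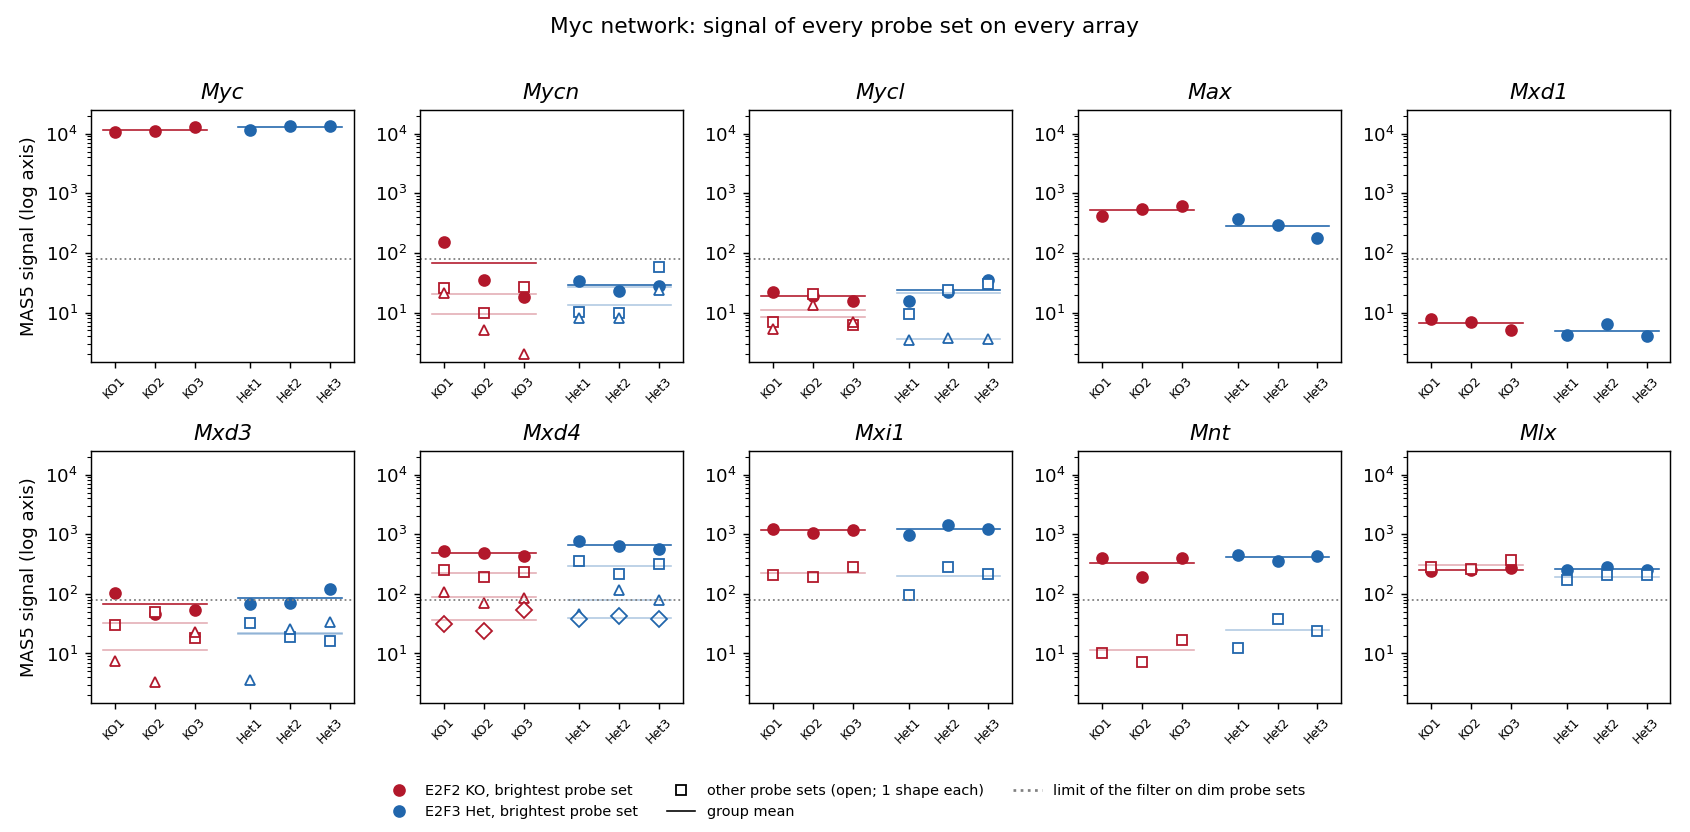
MAS5 signal on a log axis of all 22 Myc network probe sets, with KO arrays on the left and Het arrays on the right of each panel; filled points are the brightest probe set of a gene, open points the others, and short lines the group means. Myc lies between 10662 and 13558 on all 6 arrays, the 3 KO values of Max lie above the 3 Het values, and the filled points of Mxd4 lie lower in KO.

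The other Myc family genes were dim. The filter left out the dimmest 40% of probe sets, those with a geometric mean signal of up to 78.4, and Mycn, Mycl, Mxd1 and Mxd3 had no probe set above it, so they were not tested. Without detection calls, it was not known whether these signals exceeded background. Mycn, best known from embryonic tissue and neuroblastoma, read 149.7, 34.9 and 18.2 in KO replicates 1, 2 and 3, against 33.7, 23.4 and 28.3 in Het replicates 1, 2 and 3. A single metastasis, KO replicate 1, was therefore high, and it was also the array with the highest lung alveolar markers. Its mean over 13 alveolar genes was 1.38 log2 units above the mean of the 6 arrays, against -0.98 to 0.43 on the other 5, and the part of lung tissue in the Mycn signal was not tested. The dimmer Mycn probe sets did not show this, with KO replicate 1 at 25.9 and 21.1 and the highest values, 59.0 and 23.9, in Het replicate 3. Mycl, the family member found in some small cell lung cancers, read 15.6 to 22.2 in KO and 15.5 to 34.6 in Het metastases with its brightest probe set. Its dimmest probe set did not overlap, with 5.38 to 13.2 in KO and 3.44 to 3.67 in Het metastases, far below the limit of the filter.

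Max, the partner that every Myc dimer needs, showed the largest difference among the members tested. Its single probe set read 410.3, 550.7 and 605.8 in KO replicates 1, 2 and 3, against 363.4, 293.8 and 180.8 in Het replicates 1, 2 and 3. All 3 KO metastases lay above all 3 Het metastases, narrowly so between KO replicate 1 and Het replicate 1. The mean was 522.3 ± 100.8 for the KO metastases and 279.3 ± 92.2 for the Het metastases (SD over 3 arrays in each), a ratio of 1.87. The log2 difference was 0.90 (SE 0.30; 95% interval 0.15 to 1.65), with an unadjusted limma p of 0.027 and adjusted p = 0.9999, so Max did not pass the test. With each array as a sample the limma adjusted p was 0.386, a fit that counts the 3 Het arrays as independent although they probably share a mouse.

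Max is set here beside the cell type markers of each metastasis. Alveolar markers stood at 1.38, 0.43 and -0.98 in KO replicates 1, 2 and 3 relative to the mean of the 6 arrays, while Max stood at 0.13, 0.54 and 0.68. In Het replicates 1, 2 and 3 the alveolar markers stood at 0.20, -0.60 and -0.42 and Max at -0.04, -0.33 and -0.98. The metastasis with the highest alveolar markers thus had the lowest Max of the KO group. In the Het group the highest Max and the highest alveolar markers were on the same array. The mean of the mammary epithelial markers, over 13 genes, ran from -0.47 to 0.09 in KO and from 0.15 to 0.21 in Het metastases, without overlap. Gene by gene, 5 were higher and 8 lower in KO, and only Foxa1 (higher) and Gata3 (lower) did not overlap. Among all genes, 5.88% lay higher and 10.5% lower without overlap. Epcam, Krt8, Krt18 and Cdh1 differed by 0.11, 0.01, 0.21 and 0.05. The largest falls were those of the milk genes Wap (-1.44) and Ltf (-1.14), both with overlap. Fibroblast markers, over 7 genes, ran from -0.21 to 0.54 in KO and from -0.27 to -0.16 in Het metastases. Of these 7 genes, 4 (Col1a1, Col1a2, Col3a1 and Dcn) lay higher in KO without overlap, against 5.88% of all genes. The others overlapped, with log2 differences of -0.30 for Pdgfra, 0.03 for Pdgfrb and 0.27 for Fn1. Of 6 blood markers, 3 lay higher without overlap, against the same 5.88% of all genes. These 3 were the platelet genes Pf4, Ppbp and Itga2b. The other blood markers overlapped, with Alas2 at -0.38, S100a8 at -0.04 and S100a9 at 1.05. The part of cell composition in the Max difference was not tested, and in bulk tissue fewer cells of a type and less RNA per cell cannot be told apart.

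**Figure D2:**
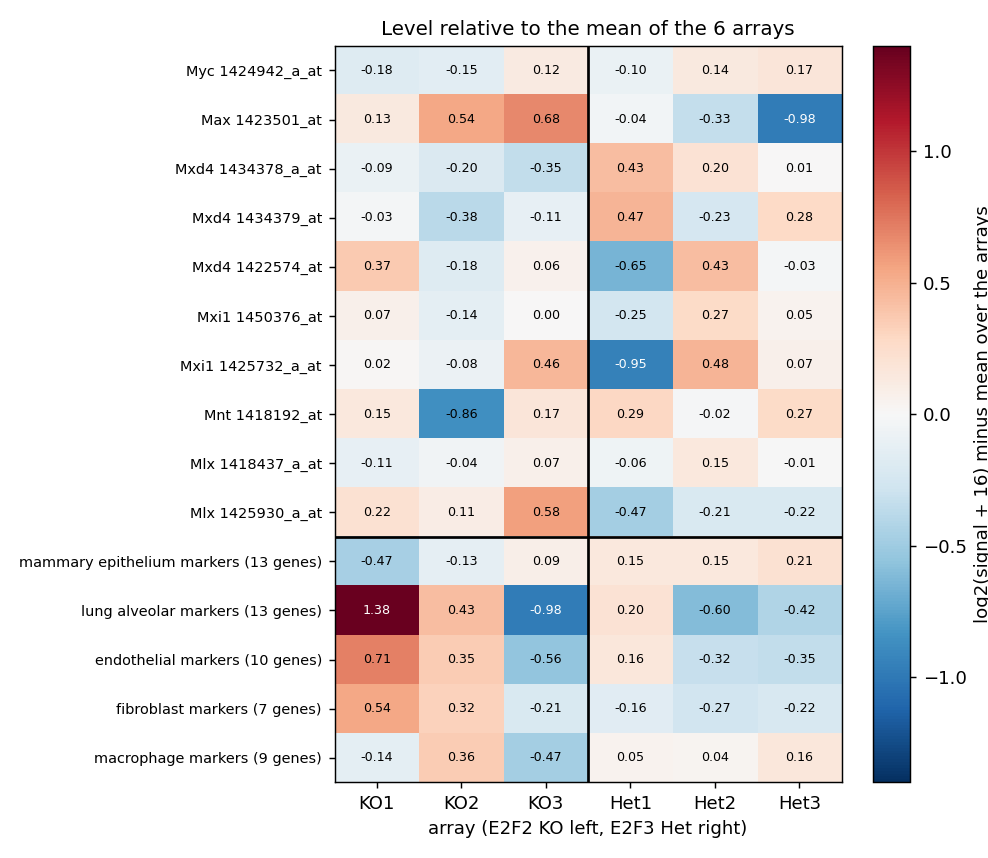
Level of each tested Myc network probe set (upper rows) and mean level of cell type markers (lower rows) on each array, as log2(signal + 16) minus the mean over the 6 arrays, with KO left and Het right. Max runs from 0.13 to 0.68 in KO and from -0.98 to -0.04 in Het metastases, while alveolar markers span 1.38 to -0.98 within KO.

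A set of 5 genes had an array profile most like that of Max, by the smallest root mean square difference of centred log2 values over the 6 arrays, which are not independent samples. They were Wfdc21 (0.20), the autophagy gene Atg9b (0.21), the fatty acid elongase Elovl6 (0.21), Pdrg1 (0.22) and the kinase Map3k7 (0.22). Elovl6, for instance, read 1305, 1234 and 1763 in KO replicates 1, 2 and 3, against 957.2, 908.0 and 676.7 in Het replicates 1, 2 and 3. With 7957 genes searched, close matches over so few arrays are a description only.

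Mxd4, a repressor that competes with Myc for Max, lay the other way with its brightest probe set. It read 522.9, 482.2 and 435.5 in KO replicates 1, 2 and 3, against 759.6, 644.7 and 560.4 in Het replicates 1, 2 and 3. All 3 KO metastases lay below all 3 Het metastases, with KO replicate 1 and Het replicate 3 closest. The mean was 480.2 ± 43.7 for the KO metastases and 654.9 ± 99.96 for the Het metastases (SD over 3 arrays in each), and the log2 difference of -0.43 did not pass (SE 0.24; 95% interval -1.03 to 0.18; limma adjusted p = 0.9999).

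The other Mxd4 probe sets did not all share this. The next brightest read 251.5, 193.6 and 236.4 in KO against 362.3, 216.5 and 315.4 in Het metastases, with overlap in Het replicate 2 and a difference of -0.35 (SE 0.27; limma adjusted p = 0.9999). The third read 108.0, 69.1 and 84.4 in KO against 45.1, 114.1 and 78.3 in Het metastases, a difference of 0.17 (SE 0.37; limma adjusted p = 0.9999) that turned to -0.12 without Het replicate 1. The fourth was under the filter, with 24.1 to 54.6 in KO and 38.0 to 43.2 in Het metastases. Averaged over its 4 probe sets, Mxd4 differed by -0.18 (SE 0.30). The E-box shown in the Mxd4 window lies beside a gene whose probe sets disagree in direction.

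Mxi1, a further Sin3-recruiting repressor, differed by less than its spread between metastases. Its brightest probe set read 1228, 1064 and 1176 in KO against 981.1, 1417 and 1216 in Het metastases, and the Het values enclosed all 3 KO values. The log2 difference was -0.05 (SE 0.22; 95% interval -0.60 to 0.51; limma adjusted p = 0.9999). The dimmer probe set read 203.6, 188.6 and 282.8 in KO against 96.2, 285.2 and 212.1 in Het metastases. Its difference of 0.27 (SE 0.32; limma adjusted p = 0.9999) turned to -0.14 without Het replicate 1, which was the lowest array for both Mxi1 probe sets and for the third of Mxd4. That array, which had the high 3' to 5' ratio, was also the lowest for the dimmer Mlx probe set (168.8) and the highest for the main probe sets of Mxd4 (759.6) and Mnt (442.8). The part of RNA quality in these values was not tested.

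Mnt, the repressor found in most tissues alongside Max, was set apart by 1 metastasis. It read 401.4, 191.5 and 407.1 in KO replicates 1, 2 and 3, against 442.8, 355.9 and 436.8 in Het replicates 1, 2 and 3. KO replicate 2 was low and the other KO values lay within the Het range. The log2 difference was -0.36 (SE 0.47; limma adjusted p = 0.9999), and it was -0.02 without KO replicate 2. The other Mnt probe set was dim, with 7.18 to 16.5 in KO and 12.4 to 38.1 in Het metastases.

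The remaining repressors, Mxd1 and Mxd3, were not tested. Mxd1, which rises in differentiating cells, had 1 probe set, with 5.17 to 7.81 in KO and 4.002 to 6.46 in Het metastases. Mxd3, the family member expressed in S phase, read 103.9, 45.2 and 53.5 in KO against 67.8, 69.0 and 119.6 in Het metastases with its brightest probe set. The groups overlapped for Mxd1 and for the 3 Mxd3 probe sets. The brightest Mxd3 probe set, with an arithmetic mean of 76.5, lay close under the limit of the filter, whereas Mxd1 was far below it, and no fold is given for either gene.

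Mlx, the partner of Mlxip and Mlxipl, gave different answers with its 2 probe sets. The main one was the steadiest of the tested members, at 237.5, 249.2 and 271.9 in KO against 247.2, 286.7 and 255.5 in Het metastases, a difference of -0.05 (SE 0.25; limma adjusted p = 0.9999). The other, designed on a different transcript record, read 281.7, 260.0 and 366.3 in KO against 168.8, 205.7 and 204.7 in Het metastases. All 3 KO values of this probe set lay above all 3 Het values, and its difference was 0.60 (SE 0.29; 95% interval -0.14 to 1.33; limma adjusted p = 0.9999). The name suffix of both marks probe sets that match several transcripts of 1 gene. Whether the disagreement reflects transcript forms was not tested.

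**Figure D3:**
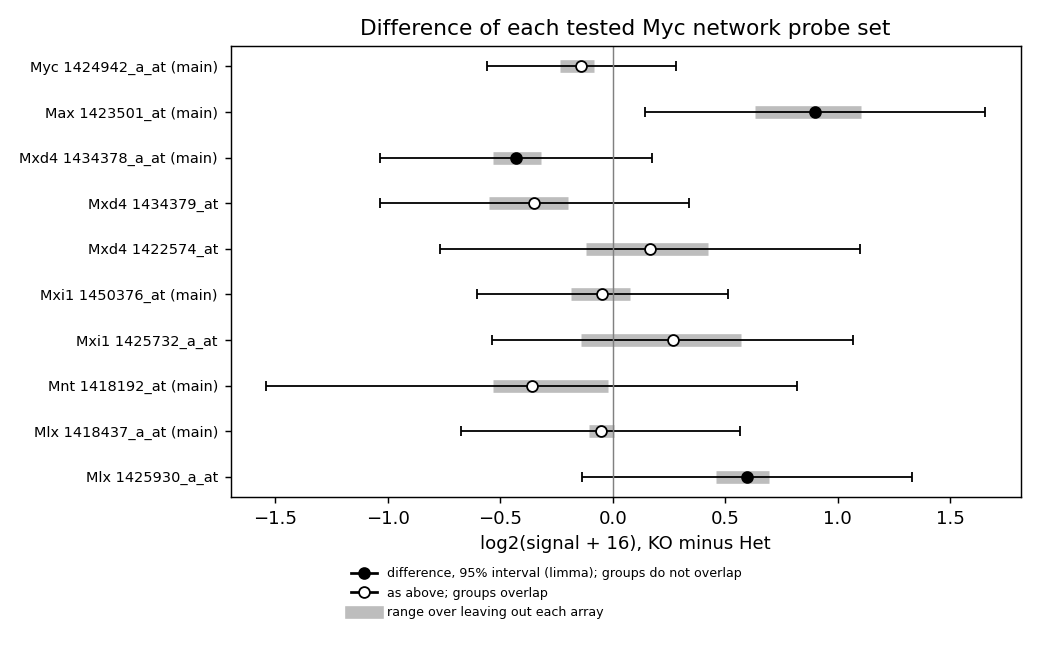
KO minus Het difference in log2(signal + 16) of the 10 tested Myc network probe sets, with 95% intervals from limma as black lines and the range over leaving out each array in turn as grey bars; filled points mark probe sets whose groups do not overlap. Only the interval of Max, 0.15 to 1.65, lies on 1 side of 0, and it is not adjusted for the 13575 probe sets tested.

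Of the 22 member probe sets, 10 passed the filter, from 6 genes, and 0 of these 10 passed the test. Over the whole table limma called 0 of 13575 probe sets (0% called), and 301 (2.22%) had an unadjusted p under 0.05, among them 1 of the 10 member probe sets, that of Max. With each array as a sample limma again called 0, and 1394 (10.3%) had an unadjusted p under 0.05, among them the probe sets of Max, the main one of Mxd4 and the second of Mlx. This second fit counts the Het arrays, which probably came from 1 mouse, as independent samples, so its p-values may be too small. KO and Het arrays were fully separated for 3 of these 10 probe sets (30%), 2 higher and 1 lower in KO, against 16.7% of all tested probe sets, of which 7.82% were higher and 8.91% lower. The difference between these shares was not tested. Counting dim ones too, 4 of the 22 member probe sets did not overlap, against 14.4% of all probe sets.

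The partners and cofactors around the network showed no call. Of 9 genes that act with the network, among them the Max-binding factor Mga, the Mlx partners Mlxip and Mlxipl and the Sin3 and deacetylase subunits, 4 were higher and 5 lower in KO, with a median log2 difference of -0.03 against -0.04 for all 7957 genes. Mga read 432.4, 380.5 and 410.1 in KO against 195.1, 409.7 and 608.1 in Het metastases, and Mlxip read 824.6, 752.6 and 1034 in KO against 1113, 1012 and 1031 in Het metastases, both with overlap. The deacetylase Hdac2 was the 1 gene of the 9 whose groups did not overlap, with 942.9 to 1051 in KO and 1054 to 1189 in Het metastases, a difference of -0.17 (SE 0.22). Such separation, lower in KO, was seen for 10.5% of all genes and, higher in KO, for 5.88%.

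Among 12 coactivators of Myc, 2 were higher and 10 lower in KO, with a median of -0.09, while 43.4% of all genes were higher. The groups did not overlap for 0 higher and 2 lower of these 12, beside 5.88% higher and 10.5% lower among all genes. The chromatin remodelling ATPase Ep400 read 604.2, 535.4 and 610.1 in KO against 770.2, 656.5 and 706.4 in Het metastases, a difference of -0.28 (SE 0.23). Smarcb1, a SWI/SNF subunit, differed by -0.07 (SE 0.22) without overlap, and its dimmer probe set, which did overlap, by -0.73. Among 13 genes that set the stability of Myc protein, 5 were higher and 8 lower, with a median of -0.12. Separation was seen for 1 higher and 0 lower of these 13, beside the same shares of all genes. Usp36, a nucleolar deubiquitinase of Myc, read 220.1, 187.2 and 213.1 in KO against 111.0, 130.8 and 176.2 in Het metastases, a difference of 0.54 (SE 0.27) with a second probe set at 1.04 and also without overlap. Fbxw7, the ubiquitin ligase subunit that marks Myc for destruction, read 557.0, 641.8 and 531.1 in KO against 595.6, 863.3 and 642.2 in Het metastases, with overlap.

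No target of Myc passed the test, which no probe set of the whole table passed. Of 29 genes known to be activated by Myc, 17 were higher and 12 lower in KO, with a median log2 difference of 0.08. The groups did not overlap for 4 higher and 1 lower gene of the 29, beside 5.88% higher and 10.5% lower among all genes, and the difference between these shares was not tested. Nop58, of box C/D ribonucleoproteins, read 1464, 1888 and 2080 in KO against 1327, 1339 and 1073 in Het metastases, a difference of 0.52 (SE 0.27). The translation helicase Eif4a1 differed by 0.33 (SE 0.14), with dimmer probe sets at 0.08 and 0.48 that overlapped. Nucleophosmin (Npm1) differed by 0.12 (SE 0.11), with a dimmer probe set at 0.22 that overlapped. Mybbp1a, a nucleolar protein, lay lower at -0.29 (SE 0.25), with a dimmer probe set at 0.04 that overlapped.

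Of 10 genes known to be repressed by Myc, 3 were higher and 7 lower in KO, with a median of -0.18. The groups did not overlap for 0 higher and 2 lower genes, beside 5.88% higher and 10.5% lower among all genes. The 3 higher genes, Cebpa at 0.68, Cdkn1a at 0.42 and Ndrg2 at 0.42, overlapped on their brightest probe sets. A dimmer Cdkn1a probe set lay at 1.23. The cell cycle inhibitor p27 (Cdkn1b) read 352.7, 317.7 and 290.1 in KO against 518.4, 434.3 and 377.3 in Het metastases, a difference of -0.44 (SE 0.25), with no overlap. Ndrg1, a stress and differentiation gene, differed by -0.61 (SE 0.48) on its brightest probe set, which may also bind related transcripts, and its other 4 probe sets lay at -0.61, -0.40, -0.25 and -0.14 with overlap. Of 6 targets of Mlx and its partners, 5 were higher and 1 lower, with a median of 0.14, and all 6 overlapped. The best known, Txnip, read 2104, 1481 and 2076 in KO against 1533, 1731 and 1830 in Het metastases. None of the genes in these lists passed the test.

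**Figure D4:**
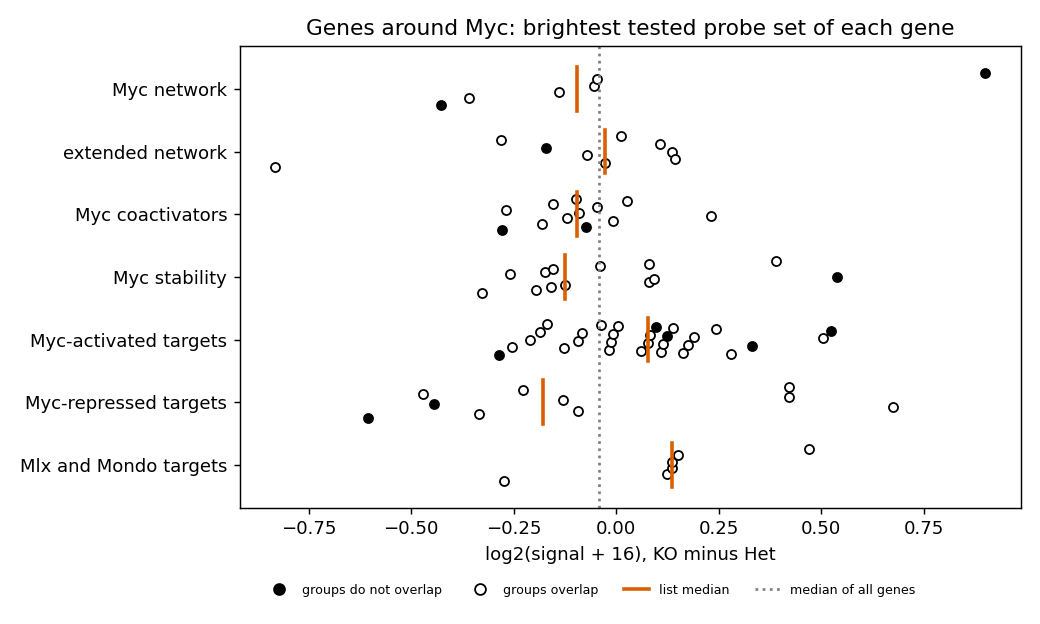
KO minus Het difference in log2(signal + 16) of each tested gene of the Myc network and 6 related lists, by the brightest probe set; filled points are genes whose groups do not overlap, orange bars list medians, and the dotted line the median of all 7957 genes at -0.04. List medians lie between -0.18 and 0.14, and Max, at 0.90, lies farthest from 0 on the higher side.

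The design limits how these differences read. With 3 KO samples against 1 averaged Het sample, the p-values rest on the spread of the KO samples alone, part of which may be technical, and if the Het arrays share a mouse, genotype and mouse of origin cannot be told apart.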

How the data were processed

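RNA from 6 lung metastases was measured on Affymetrix mouse arrays. The deposited values were intensities on a linear scale, scaled by the authors to a common trimmed mean, and MAS5 and Affymetrix Expression Console are named per the submitters' processing notes. There were 22690 probe sets in the table, including 64 controls. The platform annotation gave 1 symbol to 20380 probe sets, several to 691 and none to 1555, and all 22 member probe sets matched RefSeq (GRCm38.p6) by Entrez ID.

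Signals were taken to log2(signal + 16), which shrinks the differences of dim genes. After removal of controls and of the dimmest 40% by mean log2 value, 13575 probe sets remained. limma 3.58.1 in R 4.3.3 (lmFit, eBayes with a trend) compared 3 KO samples with the mean of the 3 Het arrays, adjusting by Benjamini-Hochberg over all 13575 with a threshold of 0.05. The procedure was also run on simulated data in which every array varied independently with the spread of the KO arrays. That setting does not show how it performs if the Het arrays share a mouse. Arrays have no depth, and their number limits the precision. Replicates were numbered in accession order, so Het replicates 1, 2 and 3 are those titled LM2, LM1 and LM3.

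A gene's main probe set has the highest mean signal. Pathway genes were named if their groups did not overlap, at most 4 per list by size. Other genes named (Mga, Mlxip, Fbxw7, Txnip, Cebpa, Cdkn1a and Ndrg2) were chosen after their values were seen. The members and lists were chosen with earlier results of these data known. Promoter sequences are from RefSeq, GRCm38.p6. Alternatives covered the unit of replication, pseudocount, filter, normalization, probe set and each array left out.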

Additional observations from a re-analysis of the deposited data

How the results depend on the processing

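The count of called probe sets, over the table and among the members, was 0 under every alternative run, so these counts carry no information on stability. For the 10 tested member probe sets, 45 of 149 recomputed differences repeat the reported one by construction, since the filter and the unit of replication do not enter it. Of the other 104, 95 kept their sign and 9 turned it, on 4 probe sets. The sign held under all alternatives able to move it for Myc, Max, Mnt, the 2 brighter probe sets of Mxd4 and the dimmer one of Mlx. Leaving out single arrays gave -0.23 to -0.08 for Myc, 0.63 to 1.11 for Max, -0.53 to -0.32 for the main Mxd4 probe set and 0.46 to 0.70 for the dimmer Mlx probe set. It gave -0.12 to 0.43 for the third Mxd4 probe set, -0.18 to 0.078 and -0.14 to 0.57 for the main and dimmer Mxi1 probe sets, and -0.10 to 0.0062 for the main Mlx probe set. Averaging all probe sets of a gene turned Mxi1 to 0.11 and Mlx to 0.27. Leaving out KO replicate 1 and Het replicate 1 together, chosen after seeing the data, turned the third Mxd4 probe set to -0.26 and the dimmer Mxi1 probe set to -0.08, and put Max at 1.27. Beyond the array named at each, the cause was not tested. Leaving out arrays can only add to the member probe sets without overlap, which numbered 3 to 5 of 10 with 1 array left out, against 23.1% to 36.5% of all tested, and 5 without both arrays, against 39.1%; the 5 without Het replicate 2 added Mnt and the second Mxd4 probe set. No paired analysis was possible because the title number of the Het arrays differs from those of all KO arrays, so no unit was common to both groups. Dim probe sets (Mycn, Mycl, Mxd1 and Mxd3) are limited by signals that may be background.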
